A study of Mus musculus with 11 samples.

Results

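Cdkn1a and 8 other target genes of the tumour suppressor p53 (Mdm2, Ccng1, Eda2r, Btg2, Plk2, Sesn2, Phlda3 and Bax) were followed in hepatocyte RNA from 4 genotypes of mice. The 9 genes were taken by name, and for each the row of the expression table annotated to that gene alone was used, with the highest mean where several rows existed. Of the 9 genes, 8 had such a row, 1 row each, and 7 passed the filter on low signal among 18337 genes tested. Phlda3 did not pass it. Bax had no row annotated to it alone and was not analysed here, and the same holds for Trp53, the gene of p53 itself.

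The RNA came from hepatocytes of male mice aged 12 weeks, measured on 11 expression arrays with 300 ng of total RNA each. The wildtype group (n = 2) had the source name Nemo cre-. The Nemo KO group (n = 3, Nemo cre+) lacked Nemo in liver parenchymal cells; Nemo is the protein of the gene Ikbkg, and without it the IkB kinases cannot switch on canonical NF-kB signalling. The Cxcr6 KO group (n = 3, Nemo_CXCR6 cre-) lacked the chemokine receptor Cxcr6, and the double KO group (n = 3, Nemo_CXCR6 cre+) lacked both. The source names put wildtype and Nemo KO in a Nemo line and the other 2 groups in a Nemo_CXCR6 line, so the loss of Cxcr6 and the mouse line cannot be told apart. The sources used here do not name the promoter that drives Cre. The labels call the replicates biological without saying that each was a separate animal, so p-values measure the spread between these samples only.

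p53 is a transcription factor that accumulates when DNA is damaged or when a cell is otherwise stressed, and it binds response elements made of a pair of half-sites in or near its target genes. Among these targets, Cdkn1a encodes p21, which inhibits cyclin-dependent kinases and halts the cell cycle, while Mdm2 encodes the ubiquitin ligase that degrades p53 and so closes a feedback loop. In liver, p21 is known as a brake on hepatocyte division during regeneration and chronic injury, and Cdkn1a can also be switched on without p53.

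The start of each gene was searched for the p53 half-site, a degenerate motif of 10 bases that reads alike on both strands. The windows ran from 250 bases before to 50 bases after each RefSeq start site on GRCm38.p6, and all 9 genes matched, with 10 windows because Cdkn1a has 2 starts. The 3 windows shown are those of measured members that held a half-site; capitals mark each half-site, and the strand shown is that of the gene.
Cdkn1a, chr17:29090729-29091028, plus strand: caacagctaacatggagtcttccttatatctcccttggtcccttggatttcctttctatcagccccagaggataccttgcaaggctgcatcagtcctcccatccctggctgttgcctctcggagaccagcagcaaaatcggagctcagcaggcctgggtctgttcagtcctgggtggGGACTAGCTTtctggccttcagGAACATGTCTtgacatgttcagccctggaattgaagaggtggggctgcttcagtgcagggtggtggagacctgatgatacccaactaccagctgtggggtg
Mdm2, chr10:117710709-117711008, minus strand: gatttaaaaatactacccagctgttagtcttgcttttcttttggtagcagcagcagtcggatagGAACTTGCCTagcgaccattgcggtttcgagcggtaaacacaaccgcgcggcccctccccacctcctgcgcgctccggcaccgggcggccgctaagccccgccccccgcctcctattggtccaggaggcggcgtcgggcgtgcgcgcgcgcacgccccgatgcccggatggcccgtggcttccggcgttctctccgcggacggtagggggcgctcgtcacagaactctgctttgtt
Ccng1, chr11:40755237-40755536, minus strand: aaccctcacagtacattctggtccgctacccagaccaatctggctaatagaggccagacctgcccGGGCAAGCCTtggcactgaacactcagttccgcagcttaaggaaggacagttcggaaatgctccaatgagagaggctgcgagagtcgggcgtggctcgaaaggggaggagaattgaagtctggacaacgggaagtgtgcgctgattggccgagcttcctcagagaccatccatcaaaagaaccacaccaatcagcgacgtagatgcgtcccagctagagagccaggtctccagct
Only exact matches were counted. The Cdkn1a window held 2 half-sites, GGACTAGCTT and GAACATGTCT, whose first bases lay at -73 and -51 from the start site, with 12 bases between them. The 10 bases directly after GAACATGTCT, tgacatgttc, depart from the motif at their first base alone and so carry no capitals. Which of these stretches p53 binds was not tested. Mdm2 held GAACTTGCCT at -186 and Ccng1 held GGGCAAGCCT at -185. Bax, which was not measured here, held AGGCAAGCTT at -201. No match was found in the second Cdkn1a window, whose start lies 2790 bases downstream, or in those of Eda2r, Btg2, Plk2, Sesn2 and Phlda3. For scale, 2745 of the 32851 windows of the same length in the RefSeq table (8.36%) held a half-site and 24 (0.073%) held a pair of them separated by 0 to 13 bases. The CHR motif TTTGAA, searched on both strands, was in 17.9% of all windows and only in that of Bax among the 10; the E-box CACGTG was in 7.15% of all windows and in those of Eda2r and Bax. A match is a description of the letters, and its absence from a window says nothing about binding elsewhere in the gene.

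Values below are log2 signals of the arrays, on which a difference of 1 is a doubling of signal, and n is 2 for wildtype and 3 for every other group. Differences between groups come from limma, fitted on all 4 groups, with standard errors and with p-values adjusted by the Benjamini-Hochberg method over the 18337 genes; a gene was called at an adjusted p of at most 0.05. Array medians ran from 5.19 to 5.38. Hepatocyte markers were at the top of the scale on every array, with means over 10 markers (Alb, Apoa1 and others) between 17.5 and 17.8. Across all genes, 1358 were called in double KO against Cxcr6 KO (631 higher, 727 lower), 109 in double KO against Nemo KO (67 higher, 42 lower), 47 in Cxcr6 KO against wildtype (32 higher, 15 lower), 29 in Nemo KO against wildtype (9 higher, 20 lower) and 0 for the interaction, which asks whether Nemo deletion had a different effect with and without Cxcr6. With arrays centred on their medians these splits were 657 higher and 462 lower, 174 and 27, 18 and 10, and 89 and 1230 in the same order, with 0 for the interaction again; with quantile normalization the splits were 651 and 1099, 66 and 22, 36 and 9, and 6 and 5. Centring moved the median difference of all genes from 0.04 to 0.16 in double KO against Nemo KO and from 0.04 to 0.17 for the interaction. Neither targeted gene was called in any comparison: the mean of Ikbkg was 9.24 in wildtype and 9.32 in Nemo KO, against 9.15 in Cxcr6 KO and 9.05 in double KO, and Cxcr6 lay between 4.94 and 5.56 on all arrays, close to the array medians. Probes outside a deleted exon do not check a deletion, and the sources used here do not say which exons these rows cover.

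Cdkn1a was low in Cxcr6 KO and high in the other 3 groups. The signals were 6.54, 6.01 and 7.11 in Cxcr6 KO, 11.58, 9.48 and 11.43 in double KO, 9.48, 9.45 and 10.37 in Nemo KO, and 8.91 and 11.46 in wildtype. All 3 Cxcr6 KO arrays lay below all 8 others, while the ranges of the remaining 3 groups overlapped, and the 2 wildtype arrays lay far apart. From lowest to highest, group means ± SD were 6.55 ± 0.55 (Cxcr6 KO), 9.77 ± 0.52 (Nemo KO), 10.19 ± 1.81 (wildtype) and 10.83 ± 1.17 (double KO).

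Against Cxcr6 KO, Cdkn1a rose in double KO by 4.28 ± 0.72 on the log2 scale (95% interval 2.64 to 5.91, adjusted p = 0.0163), which is 19.4-fold. The difference between Nemo KO and wildtype was -0.42 ± 0.81 (-2.24 to 1.41, adjusted p = 0.797), so neither direction was established there. In Cxcr6 KO against wildtype the difference was -3.64 ± 0.81 (-5.46 to -1.81), with an adjusted p of 0.137 that did not pass. The difference between double KO and Nemo KO was 1.06 ± 0.72 (-0.57 to 2.69, adjusted p = 0.474). The interaction was 4.70 ± 1.09 (adjusted p = 0.251). Several of these rest on single arrays. The call in double KO against Cxcr6 KO was lost without double KO replicate 3 (3.98, adjusted p = 0.0644), without Cxcr6 KO replicate 2 (4.01, 0.0652) and without Cxcr6 KO replicate 3 (4.55, 0.0589), fits in which fewer genes were called in all. Without wildtype replicate 1, Cdkn1a was called in Cxcr6 KO against wildtype (-4.91, adjusted p = 0.0231) and for the interaction (5.97, 0.03), in fits that called 2.68% and 1.26% of all genes; without wildtype replicate 2, the difference between Nemo KO and wildtype turned to 0.86 (adjusted p = 0.549).

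**Figure D1:**
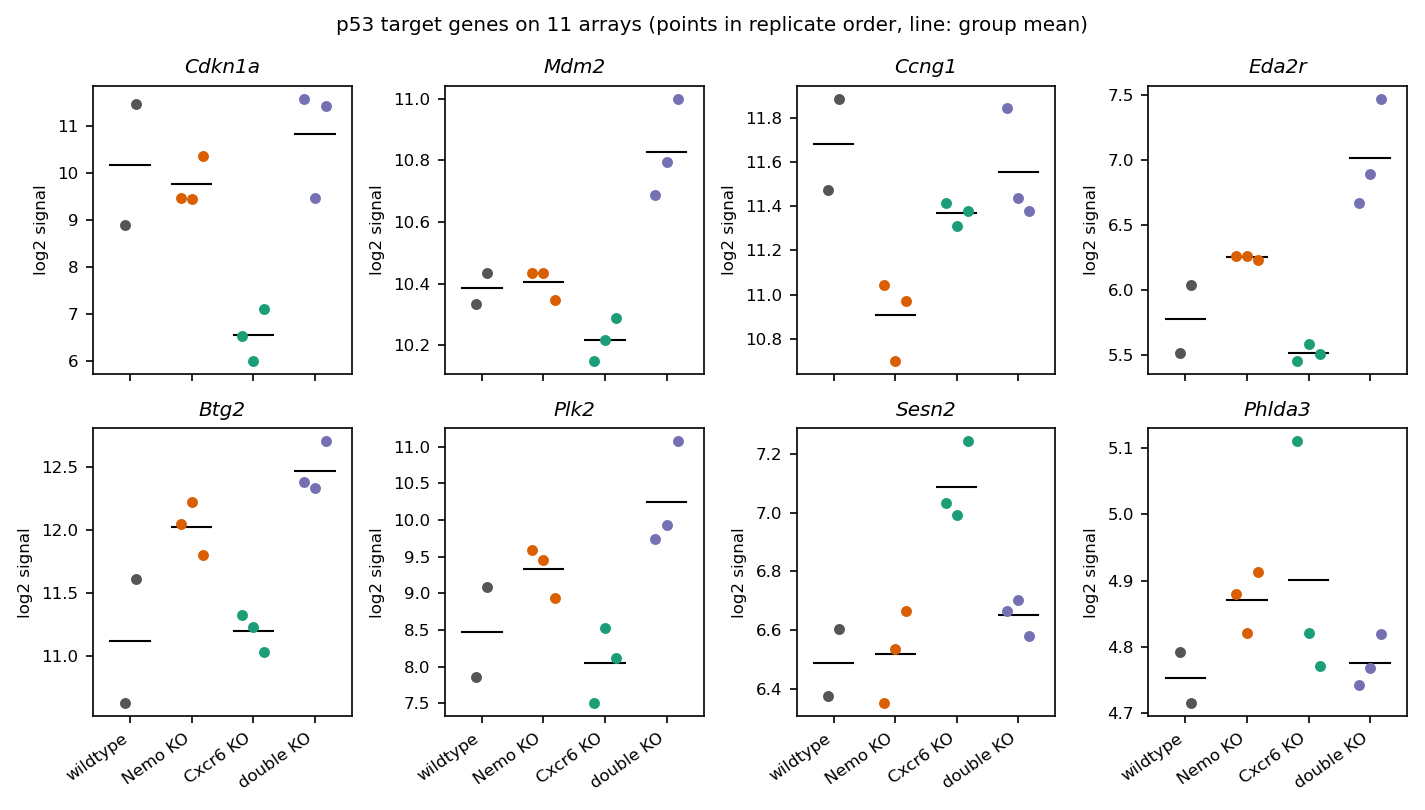
Log2 signal (vertical axis, its own range in each panel) of the 8 measured p53 targets on the 11 arrays, by genotype (horizontal axis); points are arrays in replicate order and lines are group means. Cdkn1a is lowest on the 3 Cxcr6 KO arrays, Mdm2, Eda2r, Btg2 and Plk2 are highest on the 3 double KO arrays, Ccng1 is lowest on the 3 Nemo KO arrays, Sesn2 is highest on the 3 Cxcr6 KO arrays, and Phlda3 stays between 4.71 and 5.11.

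Mdm2, the feedback ligase, was highest in double KO. Its signals were 10.69, 10.79 and 11.00 in double KO, 10.43, 10.43 and 10.35 in Nemo KO, 10.33 and 10.43 in wildtype, and 10.15, 10.22 and 10.29 in Cxcr6 KO. The double KO arrays lay above all others and the Cxcr6 KO arrays below all others, with wildtype and Nemo KO overlapping between them. Mdm2 rose in double KO against Cxcr6 KO by 0.61 ± 0.09 (0.40 to 0.82, adjusted p = 0.0132), or 1.52-fold, and the call was lost without Cxcr6 KO replicate 2 (0.61, adjusted p = 0.0519). In double KO against Nemo KO the difference was 0.42 ± 0.09 (0.21 to 0.63, adjusted p = 0.0873), which did not pass. Between Nemo KO and wildtype it was 0.02 ± 0.10 (-0.21 to 0.25, adjusted p = 0.927). The interaction was 0.59 ± 0.14 (adjusted p = 0.265).

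Of the arrest genes besides Cdkn1a, Btg2 and Plk2 followed the order of Mdm2 at the top, and Ccng1 did not. Btg2 encodes an antiproliferative protein that recruits the mRNA deadenylase complex. Its signals were 12.38, 12.33 and 12.70 in double KO, 12.05, 12.22 and 11.80 in Nemo KO, 11.33, 11.23 and 11.03 in Cxcr6 KO, and 10.63 and 11.61 in wildtype. Both groups with Nemo deleted lay above both groups that kept it, without overlap. Btg2 rose by 1.28 ± 0.23 in double KO against Cxcr6 KO (0.75 to 1.80, adjusted p = 0.0204), or 2.42-fold. In Nemo KO against wildtype the difference was 0.91 ± 0.26 (0.32 to 1.50, adjusted p = 0.089), and without wildtype replicate 2 it was 1.40 and was called (adjusted p = 0.0109), as were 12.9% of all genes. These 2 effects of Nemo deletion were not shown to differ, with an interaction of 0.37 ± 0.35 (-0.42 to 1.16, adjusted p = 0.68). The call against Cxcr6 KO was lost without double KO replicate 3 (1.16, adjusted p = 0.0719), Cxcr6 KO replicate 2 (1.29, 0.0695) or Cxcr6 KO replicate 3 (1.19, 0.0829).

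Plk2 encodes a polo-like kinase with a part in centriole duplication. Its signals were 9.75, 9.94 and 11.07 in double KO, 9.59, 9.45 and 8.93 in Nemo KO, 7.50, 8.52 and 8.12 in Cxcr6 KO, and 7.86 and 9.09 in wildtype. The double KO arrays were the 3 highest, the wildtype arrays overlapped both single deletions, and the Nemo KO arrays lay above those of Cxcr6 KO. Plk2 rose by 2.20 ± 0.43 in double KO against Cxcr6 KO (1.22 to 3.18, adjusted p = 0.0238), or 4.60-fold. Its differences were 0.85 ± 0.49 in Nemo KO against wildtype (adjusted p = 0.319) and 0.93 ± 0.43 in double KO against Nemo KO (adjusted p = 0.323). The call was lost without double KO replicate 3 (1.79, adjusted p = 0.0719) and without Cxcr6 KO replicate 1 (1.93, 0.0637), replicate 2 (2.44, 0.0595) or replicate 3 (2.24, 0.0863).

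Ccng1 encodes cyclin G1, which brings a phosphatase to Mdm2. Its signals were 11.04, 10.70 and 10.97 in Nemo KO, 11.41, 11.31 and 11.38 in Cxcr6 KO, 11.84, 11.44 and 11.38 in double KO, and 11.47 and 11.88 in wildtype. The Nemo KO arrays lay below all others, and double KO overlapped both wildtype and Cxcr6 KO. The difference between Nemo KO and wildtype was -0.77 ± 0.17 (-1.17 to -0.38, adjusted p = 0.0679), which passed only with arrays centred on their medians (-0.85, adjusted p = 0.0388), where 7.22% of all genes did. Between double KO and Cxcr6 KO it was 0.18 ± 0.16 (-0.17 to 0.54, adjusted p = 0.467), the smallest difference among the 7 tested members in that comparison. Against Nemo KO, double KO was higher by 0.65 ± 0.16 (0.30 to 1.00, adjusted p = 0.11). The interaction was 0.96 ± 0.23 (0.43 to 1.48), and its adjusted p of 0.265 did not pass.

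Eda2r encodes a receptor of the TNF receptor family that binds ectodysplasin A2. Its signals were 6.67, 6.89 and 7.47 in double KO, 6.26, 6.26 and 6.23 in Nemo KO, 5.52 and 6.04 in wildtype, and 5.45, 5.58 and 5.50 in Cxcr6 KO. The 2 groups with Nemo deleted lay above the 2 that kept it, double KO lay above Nemo KO, and wildtype overlapped Cxcr6 KO. Eda2r rose by 1.50 ± 0.20 in double KO against Cxcr6 KO (1.06 to 1.94, adjusted p = 0.00892), or 2.83-fold, and stayed called under all 21 alternatives tried. The difference was 0.47 ± 0.22 in Nemo KO against wildtype (-0.02 to 0.97, adjusted p = 0.222). In double KO against Nemo KO it was 0.76 ± 0.20 (0.32 to 1.21, adjusted p = 0.131). The interaction was 1.03 ± 0.29 (adjusted p = 0.273).

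Sesn2 encodes sestrin 2, which restrains mTORC1 when leucine is scarce or the cell is under oxidative stress, and it ran the other way. Its signals were 7.03, 6.99 and 7.24 in Cxcr6 KO, 6.67, 6.70 and 6.58 in double KO, 6.35, 6.53 and 6.67 in Nemo KO, and 6.37 and 6.60 in wildtype. The Cxcr6 KO arrays lay above all others, and the other 3 groups overlapped. Sesn2 fell in double KO against Cxcr6 KO by 0.44 on the log2 scale (-0.44 ± 0.11, interval -0.69 to -0.19, adjusted p = 0.0473). This call was the least stable of the 6: it held under 11 of 21 alternatives, and was lost with arrays centred on their medians (-0.38, adjusted p = 0.0807), with no filter on low signal (0.0605), with a replicate block (0.0502), and without any 1 of the 3 double KO arrays (0.0761, 0.0952 and 0.142), any 1 of the 3 Cxcr6 KO arrays (0.0812, 0.0973 and 0.149) or Nemo KO replicate 1 (0.0543). In Cxcr6 KO against wildtype the difference was 0.60 ± 0.12 (0.32 to 0.88, adjusted p = 0.112). Between Nemo KO and wildtype it was 0.03 ± 0.12 (-0.25 to 0.31, adjusted p = 0.918).

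Phlda3, whose product competes with Akt for membrane lipids, stayed near the bottom of the scale. Its 11 signals ran from 4.71 to 5.11, and its highest group mean, 4.90 in Cxcr6 KO, was below the 5.27 needed for testing. The other group means ran from 4.75 in wildtype to 4.87 in Nemo KO, and no difference between groups was tested.

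Counted together, 6 of the 7 tested members were called in double KO against Cxcr6 KO, 5 higher and 1 lower, where 7.41% of all genes tested were called, 3.44% higher and 3.96% lower. The same 6 members did not overlap between these groups, as was so for 37.7% of all genes. The members, and the lists below, were chosen with earlier results of these data known. The shares over all genes therefore give scale only and are no test of the members. The median difference of the members was 1.28, against -0.06 over all genes. The Cxcr6 KO value is part of this difference: Cxcr6 KO had the lowest mean of all 4 groups for Cdkn1a, Mdm2, Eda2r and Plk2, and the highest for Sesn2. The count was 6 without the wildtype group, a fit added after the data had been seen. It was 2 without double KO replicate 3 (Mdm2 and Eda2r), 1 without Cxcr6 KO replicate 2 (Eda2r) and 2 without Cxcr6 KO replicate 3 (Mdm2 and Eda2r), and those fits called 203, 202 and 116 genes in all.

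**Figure D2:**
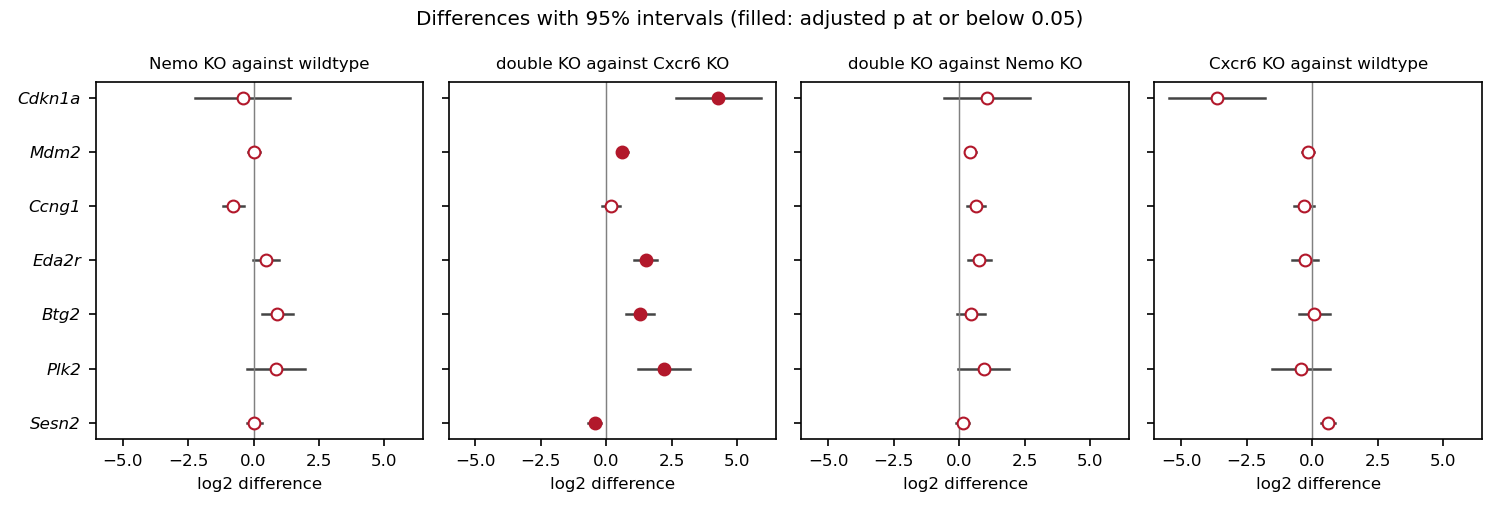
Log2 difference (horizontal axis) of the 7 tested p53 targets in 4 comparisons, first group minus second; points are limma estimates, lines are 95% intervals, and filled points have an adjusted p at or below 0.05. Filled points appear only for double KO against Cxcr6 KO, where Cdkn1a is at 4.28, Plk2 at 2.20, Eda2r at 1.50, Btg2 at 1.28, Mdm2 at 0.61 and Sesn2 at -0.44.

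The other comparisons called none of the 7 members. In double KO against Nemo KO, where 0.594% of all genes were called, all 7 members were higher in double KO, as were 57.0% of all genes, with a member median of 0.65 against 0.04. Of these, 3 members (Mdm2, Ccng1 and Eda2r) had an unadjusted p under 0.05, as did 16.8% of all genes, and 5 (these 3, Btg2 and Plk2) did not overlap, as did 22.8%. With array quality weights, Mdm2 (0.40, adjusted p = 0.0233), Ccng1 (0.53, 0.0408) and Eda2r (0.74, 0.0282) were called, in a fit that called 5.30% of all genes. In Nemo KO against wildtype, where 0.158% of all genes were called, Ccng1 (lower) and Btg2 (higher) had an unadjusted p under 0.05, as did 24.6% of all genes, and the member median was 0.03 against -0.04. In Cxcr6 KO against wildtype, where 0.256% were called, the genes under that level were Cdkn1a (lower) and Sesn2 (higher), with 11.1% of all genes below it, and the member median was -0.27 against 0.01. For the interaction, where 0.0% were called, 5 members (Cdkn1a, Mdm2, Ccng1, Eda2r and Sesn2) had an unadjusted p under 0.05, as did 11.8% of all genes, so the effect of Nemo deletion on these genes was not shown to differ between mice with and without Cxcr6. Comparisons that have a group in common share its arrays, so their values are not independent of each other.

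Across the 11 arrays, Eda2r, Plk2, Btg2 and Mdm2 moved most alike. Pearson's r was 0.963 between Eda2r and Plk2, 0.957 between Mdm2 and Eda2r and 0.921 between Eda2r and Btg2. Cdkn1a had r of 0.738 with Eda2r, 0.717 with Plk2, 0.711 with Mdm2 and 0.652 with Btg2. Ccng1 stood apart, with r between -0.121 and 0.237 with each other member, and Sesn2 had negative r with all but Ccng1. These values describe 11 arrays that share 4 genotypes, so group differences make up much of them.

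The tested genes with signals most like Cdkn1a over the 11 arrays were Septin11 (r = 0.974), Celsr1 (0.973), Trim2 (0.969), Nedd4l (0.949) and Itsn1 (0.944). Septin11 encodes a filament-forming septin, Celsr1 a cadherin of planar cell polarity, Trim2 and Nedd4l ubiquitin ligases and Itsn1 an endocytic scaffold. All 5 had their lowest mean in Cxcr6 KO, as Cdkn1a did: Nedd4l averaged 10.22 ± 0.33 there, against 11.96 ± 0.11 in Nemo KO, 12.07 ± 0.59 in double KO and 12.21 ± 0.23 in wildtype. Those most like Eda2r were Fmnl2 (0.986), Tspan8 (0.985), Stk10 (0.983), Col14a1 (0.981) and H2-Q1 (0.980). Those most like Mdm2 were Abcc9 (0.975), Csrp1 (0.975), Rgs5 (0.971), Tspan8 (0.969) and Stk10 (0.964). These 8 genes had their highest mean in double KO and their lowest in Cxcr6 KO, for example Rgs5, a pericyte and stellate cell gene, at 8.74 ± 0.64 and 6.48 ± 0.10.

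Beyond the 9 genes, 75 other p53 targets were listed by role, and 59 were tested. In double KO against Cxcr6 KO, 6 of the 59 rose and 3 fell, with a median difference of 0.10, against shares of 3.44% and 3.96% over all genes. Among 15 cell death targets, 5 rose and 1 fell. Those that rose were Tnfrsf10b, the TRAIL receptor (1.62 ± 0.25, adjusted p = 0.0141), Casp1, the caspase that matures interleukin-1 beta (1.13 ± 0.19, 0.016), Apaf1, the scaffold of the apoptosome (0.92 ± 0.15, 0.0148), Fas, the death receptor (0.68 ± 0.13, 0.024), and Trp53i11 (0.58 ± 0.08, 0.0089). Bid, which carries death receptor signals to mitochondria, fell (-0.62 ± 0.14, 0.0374).

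Tnfrsf10b averaged 6.79 ± 0.45 in double KO, 6.01 ± 0.34 in Nemo KO, 5.43 ± 0.44 in wildtype and 5.17 ± 0.07 in Cxcr6 KO, the order of Eda2r. Fas was set apart by Cxcr6 KO, like Cdkn1a: it averaged 10.25 ± 0.10 there and between 10.79 and 10.93 in the other groups. Bid was highest in Cxcr6 KO at 7.40 ± 0.22, like Sesn2, and it also rose in Cxcr6 KO against wildtype (1.05 ± 0.16, adjusted p = 0.0447). Without double KO replicate 3, Cxcr6 KO replicate 2 or Cxcr6 KO replicate 3, the cell death targets that rose numbered 3, 2 and 1, and none fell. Those fits called 148, 153 and 83 of all genes higher, against 631 in the main fit.

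The other roles held fewer calls. Over all genes in double KO against Cxcr6 KO, 3.44% rose and 3.96% fell. The unadjusted p was under 0.05 for 29.1% of all genes. It was so for 8 arrest and feedback, 3 DNA repair and 9 metabolism and stress targets. Among 13 arrest and feedback targets, Pvt1, a non-coding RNA, rose (0.80 ± 0.19, adjusted p = 0.0419) and none fell. Among 11 DNA repair targets none was called; Polk, a translesion polymerase, had a difference of 0.64 (adjusted p = 0.0646) and Gtf2h1, a subunit of TFIIH, one of -0.37 (0.07). Among 20 metabolism and stress targets none rose and 2 fell: Pank1, which starts coenzyme A synthesis (-1.29 ± 0.17, adjusted p = 0.00858), and Dcxr, a xylulose reductase (-0.86 ± 0.20, 0.036). Both had their highest mean in Cxcr6 KO, where Pank1 averaged 14.77 ± 0.04 against 13.87 ± 0.38 in wildtype. In double KO against Nemo KO, 50 of the 59 other targets were higher in double KO, as were 57.0% of all genes. None of the 59 was called, and 15 had an unadjusted p under 0.05, as did 16.8% of all genes. Their median was 0.22, against 0.04 over all genes. The count of higher targets was 54 with arrays centred, 50 with quantile normalization and 51 with array quality weights. Under these settings, 2, 1 and 7 of the 59 were called. Under the same 3 settings, 75.5%, 62.2% and 55.5% of all genes were higher and 1.10%, 0.482% and 5.30% were called.

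**Figure D3:**
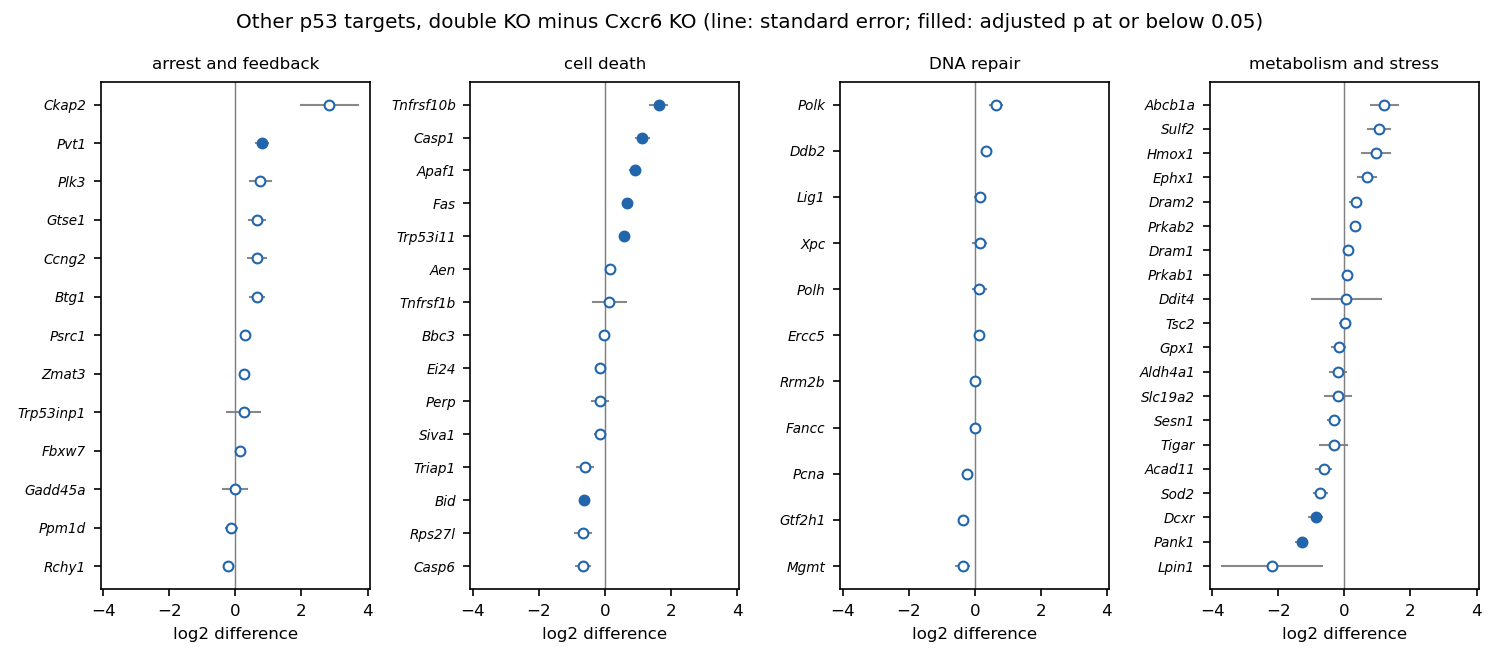
Log2 difference between double KO and Cxcr6 KO (horizontal axis) for 59 other p53 targets in 4 roles; points are limma estimates, lines are standard errors, and filled points have an adjusted p at or below 0.05. Filled points lie on the right in the cell death panel, except Bid at -0.62, and on the left in the metabolism and stress panel, with Pank1 at -1.29.

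Trp63 and Trp73, the relatives of p53, did not pass the filter on low signal. None of 22 tested genes that encode regulators of p53, among them kinases, ligases and cofactors, was called in double KO against Cxcr6 KO. Of the 22, 5 had an unadjusted p under 0.05, where 29.1% of all genes did. The smallest p-values were those of Trp53bp1, a DNA damage adaptor (0.26, adjusted p = 0.0651), and Rpl11, a ribosomal protein that binds Mdm2 (-0.38, 0.0714). Of 4 tested genes named as inhibitors of cyclin-dependent kinases, other than Cdkn1a, none was called (2 at an unadjusted p under 0.05). Cdkn3 had 1.69 (adjusted p = 0.128) and Cdkn2c 0.37 (0.167). Cdkn3 was 5.56 and 8.19 on the 2 wildtype arrays and ran from 6.86 to 8.78 in double KO. Of 11 cyclins and kinases bound by p21, Ccnd2, encoding cyclin D2, rose (0.93 ± 0.19, adjusted p = 0.0264), and 5 had an unadjusted p under 0.05. Of 18 paralogues and partners of the 9 genes, Btg3, a relative of Btg2, rose (1.95 ± 0.29, adjusted p = 0.0126), and 7 were under that level. Over all genes, 3.44% rose and 29.1% were under that level. Of 16 genes of the BCL2 family, to which Bax belongs, none rose and 4 fell, against shares of 3.44% and 3.96% over all genes. Those that fell were Bnip3l (-0.85, adjusted p = 0.00673) and Bnip3 (-1.77, 0.0265), mitophagy receptors, Bmf (-0.44, 0.0215) and Bid. All 4 had their highest mean in Cxcr6 KO, so the Cxcr6 KO value is part of these differences. Bnip3l averaged 10.30 there, 9.60 in wildtype and 9.45 in double KO. In Cxcr6 KO against wildtype, Bid and Bnip3l were called higher, where 0.256% of all genes were called. The count of BCL2 family genes that fell was 1 without double KO replicate 3, 2 without double KO replicate 2 and 1 without any 1 of the Cxcr6 KO arrays. Over all genes, 55 and 194 fell without those double KO arrays. Without Cxcr6 KO replicate 1, 2 or 3, 307, 49 and 33 fell, against 727 in the main fit.

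The DREAM complex, which p21 brings into play, is known to repress genes of DNA replication and mitosis. Of 33 such genes tested, 32 were higher in double KO than in Cxcr6 KO, as were 39.4% of all genes, with a median of 1.03 against -0.06, and 1, Ect2, a regulator of cytokinesis, was called (3.07 ± 0.77, adjusted p = 0.047); 20 had an unadjusted p under 0.05, as did 29.1% of all genes. The mean of the 33 genes was 5.95, 6.01 and 5.91 on the Cxcr6 KO arrays, 6.45, 7.09 and 8.01 on the double KO arrays, 6.52, 6.42 and 6.65 on the Nemo KO arrays, and 5.88 and 7.39 on the wildtype arrays. Wildtype replicate 1 thus had the lowest mean of all 11 arrays with a Cdkn1a signal of 8.91, and wildtype replicate 2 had the higher value of the pair in both. In double KO the array with the highest mean, replicate 3, had a Cdkn1a signal of 11.43, below the 11.58 of replicate 1, whose mean was the lowest of the 3. Double KO replicate 2, with a mean between them, had a Cdkn1a signal of 9.48. In Nemo KO, replicate 3 had the highest value of both (10.37 and 6.65). In Cxcr6 KO, replicate 2 had the lowest Cdkn1a signal, 6.01, and the highest mean. The relation of Cdkn1a to these genes was not tested.

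In Cxcr6 KO against wildtype, none of 18 clock genes tested was called, and 9 had an unadjusted p under 0.05, as did 11.1% of all genes. In double KO against Cxcr6 KO, 2 of the 18 rose and 4 fell, where 3.44% of all genes rose and 3.96% fell. Arntl, encoding BMAL1, rose by 2.65 ± 0.65 (adjusted p = 0.0438) and Clock, its partner, by 0.91 ± 0.22 (0.0421). Usp2 (-2.25 ± 0.54, 0.0401) and Hlf (-1.05 ± 0.20, 0.0217), outputs of the clock, fell. Arntl averaged 7.00 ± 0.35 in Cxcr6 KO, 9.11 ± 0.66 in Nemo KO, 10.22 ± 0.40 in wildtype and 9.66 ± 1.50 in double KO. Without Cxcr6 KO replicate 2, Cxcr6 KO replicate 3 or double KO replicate 3 none of the 18 was called. Those fits called 1.1%, 0.629% and 1.11% of all genes. The sources used here do not give the hour at which hepatocytes were taken, and its part in the Cdkn1a values was not tested.

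Markers of several other liver cell types were also higher in double KO. In RNA from a bulk preparation, fewer cells of a type and less RNA per cell cannot be told apart. Of 14 endothelial markers, 13 rose in double KO against Cxcr6 KO, where 3.44% of all genes rose. The mean of the 14 ran from 8.07 to 8.99 in double KO, 7.31 to 7.78 in Nemo KO, 6.99 to 7.02 in wildtype and 6.34 to 7.03 in Cxcr6 KO. Of 10 stellate cell and fibroblast markers, 8 rose, with means of 6.71 to 7.54, 6.53 to 6.68, 5.94 to 6.33 and 5.80 to 5.91 in that order of groups. Of 15 macrophage markers, 6 rose, with means of 7.92 to 8.87, 7.16 to 8.60, 6.51 to 7.50 and 6.85 to 7.15. Of 7 cholangiocyte markers, 3 rose, with means of 6.20 to 6.96, 5.91 to 6.02, 5.72 to 5.87 and 5.69 to 5.78.

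None of the 10 hepatocyte markers was called (2 at an unadjusted p under 0.05), and their means ran from 17.58 to 17.66 in double KO and from 17.74 to 17.81 in Cxcr6 KO. None of 5 markers of T, NK and NKT cells and none of 4 of neutrophils was called (1 each at an unadjusted p under 0.05), with means of 5.20 to 5.62 and 5.96 to 6.28 over all arrays, nor was the 1 tested B cell marker (0 at that level); 29.1% of all genes were under that level in this comparison. Of 2 erythroid markers, Alas2 fell (-1.60 ± 0.27, adjusted p = 0.0163), where 3.96% of all genes fell. In double KO against Nemo KO, the 7 members and 50 of the 59 other targets were higher, as were 57.0% of all genes. All 14 endothelial markers, all 10 stellate cell markers, 13 of 15 macrophage markers and 5 of 7 cholangiocyte markers were higher too. Other cell types were mixed or lower. Those higher were 6 of 10 hepatocyte, 1 of 2 erythroid, 1 of 4 neutrophil and 0 of 5 T, NK and NKT cell markers, and the 1 B cell marker was lower. Of the endothelial, stellate, macrophage and cholangiocyte markers, 13, 4, 3 and 3 had an unadjusted p under 0.05, as did 16.8% of all genes. The endothelial Tek (1.10 ± 0.18, adjusted p = 0.0447) and the cholangiocyte marker Tspan8 (1.02 ± 0.17, 0.0487) were called, while Alas2 fell (-1.54 ± 0.27, 0.0487). The order of the endothelial and stellate group means, double KO above Nemo KO above the groups that kept Nemo, is that of Mdm2, Eda2r, Btg2 and Plk2. For Cdkn1a and Mdm2 the order of wildtype and Nemo KO was not established, with differences of -0.42 ± 0.81 and 0.02 ± 0.10. Plk2 also overlapped between these groups. No member was called in Nemo KO against wildtype or in double KO against Nemo KO. The part of these cells in the differences of the p53 targets was not tested. Without Cxcr6 KO replicate 3, the called markers numbered 6 endothelial, 3 stellate and 0 macrophage, and without double KO replicate 3 they numbered 7, 3 and 0. Those fits called 83 and 148 of all genes higher, against 631 in the main fit.

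**Figure D4:**
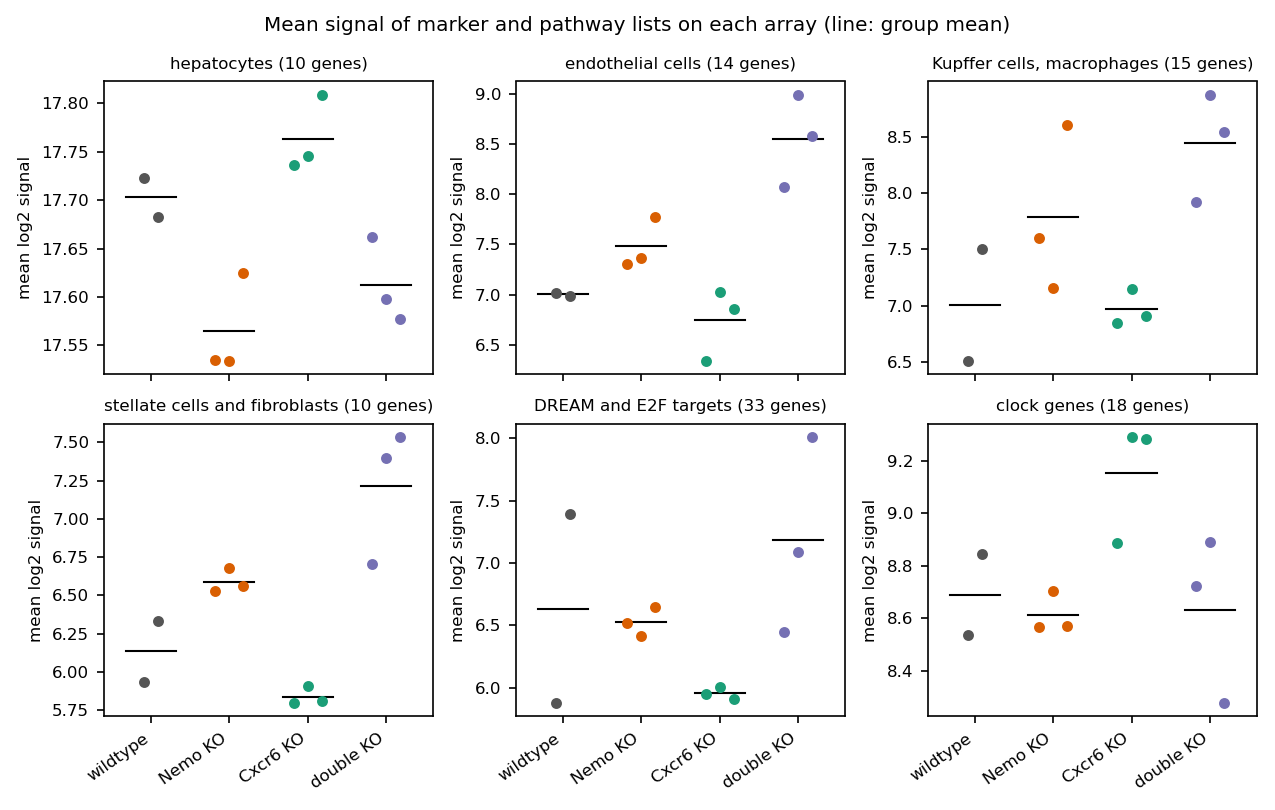
Mean log2 signal of 6 gene lists (vertical axis, its own range in each panel) on each of the 11 arrays by genotype (horizontal axis); points are arrays and lines are group means. Endothelial, macrophage and stellate markers have their highest group means in double KO, the hepatocyte mean stays between 17.5 and 17.8, DREAM and E2F target genes are lowest in Cxcr6 KO and 1 wildtype array, and 2 of the 3 Cxcr6 KO arrays have the highest clock gene means. The clock mean pools genes that move in opposite directions: in Cxcr6 KO, Arntl has its lowest group mean and Hlf its highest.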

How the data were processed

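RNA of 11 hepatocyte samples in 4 genotype groups was measured on Affymetrix whole-transcript arrays. The deposited values are log2 signals, made by the authors with Affymetrix Expression Console, RMA and Transcriptome Analysis Console per the submitters' processing notes; versions and the genome build are not given in the sources used here. Of 65956 rows, 30604 carried a single gene symbol, 2146 several and 33206 none; only the first kind was used. Of these, 22818 matched the RefSeq table of GRCm38.p6 by gene ID, and 827 symbols were updated. Per gene, the row with the highest mean was kept (30142 genes), and a gene was tested where at least 1 group averaged 5.27 or more, the median over rows of their means. RMA pulls the arrays towards a common distribution, which can compress a shift shared by most genes, and signals near the floor or the ceiling understate differences.

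limma 3.58.1 in R 4.3.3 (lmFit, eBayes) fitted a mean per group, with residual and prior degrees of freedom of 7 and 2.13. Tests were two-sided with Benjamini-Hochberg adjustment at 5%, and the script was tested on simulated data. Arrays have no read depth; their number limits the precision. The members, gene lists and markers were chosen with earlier results of these data known. Besides the 9 genes, the text names from each list up to 4 called members by smallest p (or 2 where none was called), the 5 genes most like Cdkn1a, Eda2r and Mdm2, and the targeted genes; Fas was named outside this rule, after its values were seen. Alternatives changed the scaling, the filter, the row per gene, the variance model, the samples in the fit and the block, and left out each array in turn.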

Additional observations from a re-analysis of the deposited data

How the results depend on the processing

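Of 707 values of the members recomputed under alternatives, 667 kept direction and side of the threshold, 21 lost a call, 7 gained one and 12 changed sign. For double KO against Cxcr6 KO, leaving out 1 array gave 1 to 6 members called; every other alternative gave 5 or 6. For Nemo KO against wildtype, 1 member was called with arrays centred on their medians and 0 to 1 when 1 array was left out; for double KO against Nemo KO, 3 with array quality weights; for the interaction and for Cxcr6 KO against wildtype, 0 to 1 when 1 array was left out. The cause was not tested, except that a fit without 1 array has fewer samples. Signs that changed were all of values that were not called. In Nemo KO against wildtype, Mdm2 was -0.058 and Sesn2 -0.051 with centred arrays, Sesn2 was -0.089 with array weights, and leaving out 1 array gave -1.70 to 0.86 for Cdkn1a, -0.0288 to 0.071 for Mdm2 and -0.0858 to 0.14 for Sesn2. In Cxcr6 KO against wildtype, leaving out 1 array gave -0.41 to 0.57 for Btg2 and -1.04 to 0.18 for Plk2, and for the interaction -0.12 to 0.86 for Btg2.

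Same-numbered arrays of different groups did not deviate together throughout: 6 of 15 pairs had a correlation of residuals over 0.1 (range -0.272 to 0.275). These 6 were the pairs of replicates 1 and of replicates 2 among double KO, Nemo KO and wildtype. No pair with Cxcr6 KO was among them, and replicates 3 of double KO and Nemo KO had -0.232. Among Nemo KO, Cxcr6 KO and double KO, only 3 of 18 comparisons gave an array its own number as the best match. Wildtype was left out of this count. The residuals of its 2 arrays mirror each other, so its pairs are not independent. The replicate numbers were therefore not taken as pairs. With a replicate block, 5 members were called in double KO against Cxcr6 KO, Mdm2 was -0.0098 and Sesn2 -0.0104 in Nemo KO against wildtype, and the calls over all genes were 1507 in that comparison, 61 in double KO against Nemo KO, 24 in Cxcr6 KO against wildtype, 0 in Nemo KO against wildtype and 0 for the interaction.

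Counts over all genes moved more. Over all alternatives they ran from 116 to 4692 for double KO against Cxcr6 KO (main 1358; 4692 with array weights, 2766 with only these 2 groups, 2354 without the wildtype group, an alternative chosen after seeing the data), from 0 to 2380 for Nemo KO against wildtype (main 29; 1319 with centred arrays, 85 with a stricter filter, 7 with none, 11 with quantile normalization or an intensity trend, 0 with array weights or with only these 2 groups), from 11 to 971 for double KO against Nemo KO (main 109; 971 with array weights, 201 with centred arrays, 11 with only these 2 groups), from 0 to 493 for Cxcr6 KO against wildtype (main 47; 28 with centred arrays, 24 with no filter, 16 with array weights, 0 with only these 2 groups) and from 0 to 232 for the interaction (main 0; 232 and 86 without wildtype replicate 1 and 2).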

Other observations

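Of 24 tested genes of the FoxO, fasting and glucocorticoid response, 3 rose and none fell in double KO against Cxcr6 KO. Over all genes, 3.44% rose and 3.96% fell there. Pdk4, which turns pyruvate away from oxidation, rose by 3.95 ± 1.00 (adjusted p = 0.0476), Insig2, a brake on sterol synthesis, by 2.28 ± 0.45 (0.0238), and Ddit3, encoding the stress factor CHOP, by 1.14 ± 0.22 (0.0226). In Nemo KO against wildtype, Sik1, a salt-inducible kinase, rose by 2.26 ± 0.32 (adjusted p = 0.0448) and was the single gene called there among all the gene and marker lists used. Of 19 tested NF-kB target genes, Saa3, a serum amyloid, fell in double KO against Cxcr6 KO (-0.82 ± 0.17, adjusted p = 0.0289). None of the 19 was called in Nemo KO against wildtype, and 3 had an unadjusted p under 0.05, as did 24.6% of all genes. There Lcn2, an iron-binding acute phase protein, had the smallest p of the 19 with a difference of 1.78 ± 0.44 (adjusted p = 0.0753).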
